A study of Mus musculus with 10 samples.

Results

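The cytosolic ribosomal proteins are the proteins that, with ribosomal RNA, build the small (40S) and large (60S) subunits of the ribosome that translates nuclear-encoded mRNA. They were taken as every protein-coding gene whose GENCODE M21 symbol is Rpl or Rps followed by a number, with or without a closing a, l or x, together with Rpsa, Rplp0, Rplp1 and Rplp2. The rule uses names only and found 80 of the 51456 gene IDs measured, 31 of the small subunit and 49 of the large. Of these, 77 passed the filter on low values, at least 1 FPKM in at least 5 libraries, and were tested. Rpl3l, Rpl10l and Rpl39l did not pass.

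The study sorted mouse bone marrow cells and sequenced their mRNA in 2 groups of 5 libraries. The LSC group was labelled as leukaemia stem cells, sorted as lineage-negative cells with c-Kit, CD16/32 and CD34 but no Sca-1, from mice with an acute myeloid leukaemia driven by MLL-AF9, a fusion oncogene. The HSC group was labelled as haematopoietic stem cells, sorted as CD48-CD150+LSK cells from wild-type C57BL/6J mice. The genotype label reads wild-type in both groups, and the labels give no age, sex or way of delivering MLL-AF9. The groups differ in both disease and sorting gate, and these cannot be told apart. The series' title concerns nucleoporin 214 and ferroptosis, a question that ribosomal protein genes bear on only as part of the comparison of LSC with HSC. Whether the 5 libraries of a group are from different mice is not stated, and p-values here reflect library-to-library spread, which may be technical.

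Ribosomal proteins are made in near-equal numbers, one copy of each per ribosome apart from the paired stalk proteins, and their mRNAs are among the most abundant in dividing cells. Most of these mRNAs begin with a cytosine and a run of pyrimidines, the terminal oligopyrimidine (TOP) tract, through which mTOR and LARP1 control their translation. Haematopoietic stem cells are known for a low rate of protein synthesis, and red cell progenitors are known for their sensitivity to loss of 1 copy of a ribosomal protein gene, as in Diamond-Blackfan anaemia.

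Levels are given in FPKM, that is, sequenced fragments divided by gene length and by library size. Libraries correlated with each other at 0.977 to 0.987 within the LSC group, 0.935 to 0.979 within the HSC group and 0.887 to 0.926 between the groups (Pearson r of log2 values across genes). The marker genes of the labelled cells ran against the labels. Haematopoietic stem cell markers had 6 of 8 tested genes higher in the LSC-labelled libraries and 1 lower, with Ly6a, which encodes Sca-1, at 74.2 against 0.920 FPKM in the HSC-labelled libraries, and Meis1 at 10.7 against 18.6 FPKM. Of 10 genes of MLL-AF9 leukaemia, 9 were lower in the LSC-labelled libraries, and their summed level was 137 to 178 FPKM there, against 342 to 576 FPKM in the HSC-labelled libraries. The groups are therefore called LSC-labelled and HSC-labelled libraries throughout. Whether the labels were exchanged cannot be settled here, and every direction given would turn if they were. Markers of several other cell types were also higher in the LSC-labelled libraries, and each pair of values below sets these against the HSC-labelled libraries. Erythroid markers had 8 of 12 genes higher (sum 1619 to 3229 against 134 to 1767 FPKM; Car2, a carbonic anhydrase, 889 against 76.3 FPKM), and megakaryocyte markers 9 of 9 (798 to 1297 against 19.3 to 273 FPKM; Ppbp, a platelet chemokine, 183 against 0.814 FPKM). Neutrophil markers had 8 of 9 higher (243 to 5572 against 129 to 811 FPKM; Ltf, lactoferrin, 254 against 4.93 FPKM), and mast cell, basophil and eosinophil markers 7 of 8 (1132 to 2466 against 87.5 to 324 FPKM; Prss34, a basophil protease, 710.2 against 10.8 FPKM). T and NK cell markers had 4 of 5 higher (27.1 to 61.3 against 3.03 to 11.2 FPKM; Gzma, granzyme A, 15.7 against 1.03 FPKM), B cell markers 4 of 5 (38.6 to 67.4 against 32.1 to 52.3 FPKM), and endothelial and stromal markers 7 of 8 (243 to 882 against 20.1 to 53.6 FPKM; Bglap, osteocalcin, 128 against 0.237 FPKM). Monocyte markers had 3 of 8 lower (563 to 943 against 619 to 1487 FPKM; Cd68, a lysosomal glycoprotein, 58.0 against 207 FPKM). No marker of these lists was at 0 in all libraries of a group. The stated gates were lineage-negative and c-Kit-positive in both groups. The part of such cells in the values of the ribosomal protein genes was not tested, and in bulk samples fewer cells of a type and less RNA per cell cannot be told apart.

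The starts of these genes are shown first, because the TOP tract lies there. RefSeq promoters (GRCm38.p6, 250 bases before to 50 after the annotated start) were matched for 60 of the 80 members. A start at C followed by at least 4 pyrimidines, on the gene's own strand, was found in 13 of the 60 (21.7%), against 3.01% of 27025 genes. The 27025 were all genes with a RefSeq promoter and were not limited to the genes tested for expression. The part of expression level in this and the following contrasts was not tested. For every motif a gene counted where any of its promoters matched. Only the exact annotated start was read and no measured start was used. Members without a match may therefore still carry a TOP tract. The ETS factor motif CCGGAAG, searched on both strands, was in 25 of 60 (41.7%) against 9.93% of genes. The other motifs were also searched on both strands. CTCTTTC, which can overlap the pyrimidine run at the start, was in 28.3% against 9.28%, AAGATGGC, the core of the YY1 motif, in 8.33% against 3.19%, GGGCGG, the GC box, in 36 of 60 against 38.2% of genes, and TATAAA in 6 of 60 against 15.7% of genes. A match describes letters in the window and not a bound factor. The following stretches, 60 bases before the annotated start and 25 from it, are shown for 6 members with a pyrimidine start and 2 without, whose values are given in the text. Capitals mark the pyrimidine run that begins at the start site and any CCGGAAG on the printed strand.
Rps21: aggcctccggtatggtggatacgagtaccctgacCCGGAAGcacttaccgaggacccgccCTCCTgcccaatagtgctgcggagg
Rps10: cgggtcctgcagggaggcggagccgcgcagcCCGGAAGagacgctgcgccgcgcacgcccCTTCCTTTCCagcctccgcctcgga
Rpl38: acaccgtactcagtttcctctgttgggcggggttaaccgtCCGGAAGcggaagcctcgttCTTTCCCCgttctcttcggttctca
Rpl35a: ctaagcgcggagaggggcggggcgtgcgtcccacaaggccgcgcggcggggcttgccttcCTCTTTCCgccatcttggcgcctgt
Rps6: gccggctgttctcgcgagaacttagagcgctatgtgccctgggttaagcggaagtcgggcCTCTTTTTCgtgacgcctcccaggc
Rplp2: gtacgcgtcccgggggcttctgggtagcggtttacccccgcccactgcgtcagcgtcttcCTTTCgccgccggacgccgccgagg
Rpl10: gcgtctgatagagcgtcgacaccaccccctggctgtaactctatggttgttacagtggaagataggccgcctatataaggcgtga
Rps23: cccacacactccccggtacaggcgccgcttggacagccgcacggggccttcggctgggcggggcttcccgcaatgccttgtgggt

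These stretches lie at chr2:180257319-180257403 (plus strand), chr17:27635220-27635304 (minus strand), chr11:114668520-114668604 (plus strand) and chr16:33056422-33056506 (plus strand) for the first 4 genes. The others lie at chr4:86857343-86857427 (minus strand), chr7:141447591-141447675 (plus strand), chrX:74270756-74270840 (plus strand) and chr13:90923062-90923146 (plus strand). The members shown were chosen by hand and do not stand for the family. Rps21, Rps10 and Rpl38 pair a pyrimidine start with CCGGAAG upstream. Rpl35a, Rps6 and Rplp2 show the pyrimidine start without CCGGAAG in this stretch. Rpl35a averaged 119 ± 12.4 FPKM in the LSC-labelled libraries and 104 ± 16.3 FPKM in the HSC-labelled libraries (SD, n = 5 each; log2 fold change 0.20, adjusted p = 0.182). Rps6, the small-subunit protein that S6 kinase phosphorylates, averaged 893 ± 45.3 FPKM in the LSC-labelled libraries and 848 ± 130.5 FPKM in the HSC-labelled libraries (log2 fold change 0.09, adjusted p = 0.565), and neither was called. Rpl10 and Rps23 show neither a pyrimidine start nor CCGGAAG in this stretch. Over the matched members tested, 4 of 13 with a pyrimidine run at the annotated start were called higher (median log2 fold change 0.20), against 9 of 44 without one (0.19). This split need not separate TOP from other mRNAs. With CCGGAAG, 3 of 24 were called higher (0.21), against 10 of 33 without it (0.18). These counts are descriptions with no test.

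Most ribosomal protein genes had slightly higher values in the LSC-labelled than in the HSC-labelled libraries, 19 of them passed the test, and none passed it as lower. Of 77 tested, 19 were called higher at an adjusted p of 0.05, 24.7% of the members, beside 27.2% of all 13431 genes tested. None was called lower, beside 13.8% of all genes, and in either direction 41.0% of all genes were called. The share called higher was thus near that of all genes. At an unadjusted p of 0.05, 29 of 77 members were higher and 0 lower, beside 32.4% and 16.6% of all genes. The fold change was above 0 for 64 members and below 0 for 13, with a median log2 fold change of 0.21, against 0.11 over all genes tested. The interquartile range was 0.07 to 0.31 for members, against -0.17 to 0.39 for all genes. All 5 LSC-labelled libraries stood above all 5 HSC-labelled libraries for 12 members (background 20.0%) and below them for 0 (background 9.80%). Of the 12, 11 were called higher and Rpl19 was not. The called members were 1.19 to 1.64 times as high in the LSC-labelled libraries, as ratios of mean FPKM. For 61 of 77 members the 95% interval of the fold change lay within 1.5-fold in either direction. It reached beyond 1.5-fold upward for 16 and downward for 0.

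**Figure D1:**
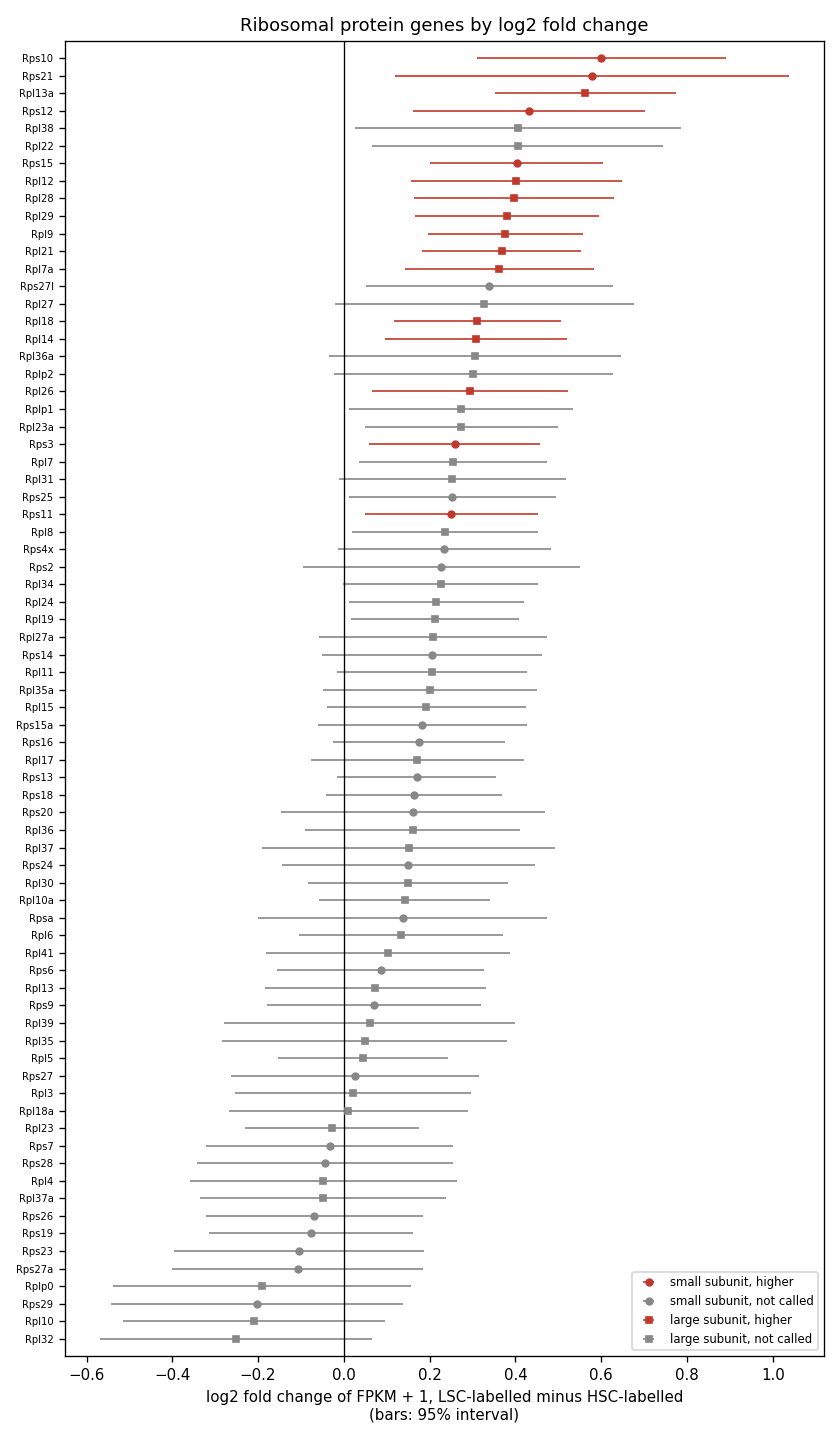
Log2 fold change of FPKM + 1 (LSC-labelled minus HSC-labelled) of 74 of the 77 tested ribosomal protein genes, with 95% intervals, circles for the small and squares for the large subunit, red where the adjusted p is under 0.05. The members run from Rps10 at 0.60 to Rpl32 at -0.25, and all called members shown lie to the right of 0.

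**Figure D2:**
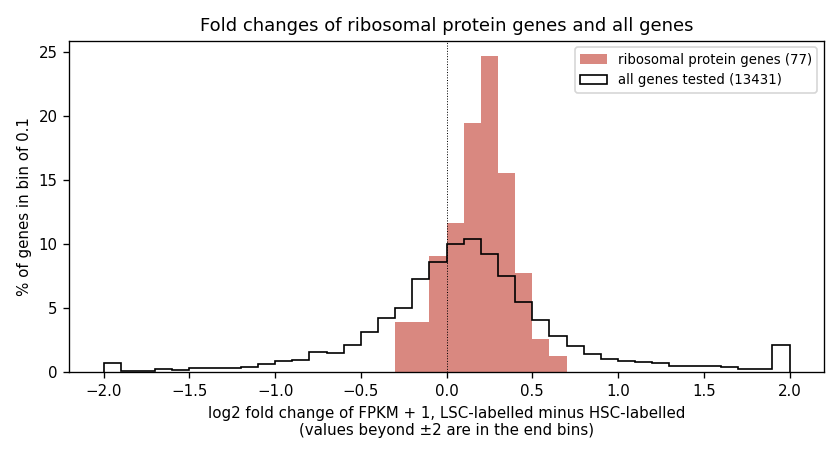
Percentage of genes in bins of 0.1 of log2 fold change (LSC-labelled minus HSC-labelled), filled for the 77 ribosomal protein genes and outlined for all 13431 genes tested. The members are packed around their median of 0.21, while all genes spread widely around 0.11.

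The count of called members depended on scaling and on 1 library. With median-of-ratios scaling, which moved the median over all genes to 0.01, 7 members were called higher and 0 lower, all 7 among the 19, with a median of 0.08 over the 77 members, and 21.8% of all genes were called higher and 19.0% lower. With libraries weighted by their fit, 35 were called higher (background 28.9%) and 0 lower (15.4%). Without HSC-labelled replicate 2, 32 were called higher, including all 19 (background 29.4%), and 0 lower (14.4%). Without HSC-labelled replicates 3 and 4 together, 17 were called higher, 13 of them among the 19 (background 20.8%), and 0 lower (14.9%). Of the members, 4 were called higher in every one of the 23 alternative fits, among them Rpl13a, Rpl9 and Rps15, and no member was called lower in any. Rps10 kept its call in all 22 alternatives that tested it, and the filter at 10 FPKM left it out of the other.

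Among small-subunit proteins, 9 of 31 were called higher (29.0%, beside 27.2% of all genes), with a median log2 fold change of 0.18. Rps15, a protein of the small-subunit head that reaches the decoding site (ENSMUSG00000063457, chr10:80292453-80294114, plus strand), had 994, 1165, 1109.8, 1029 and 1119 FPKM in the LSC-labelled libraries, against 821, 935, 759, 741 and 847 FPKM in the HSC-labelled libraries. Every LSC-labelled value exceeded every HSC-labelled one (log2 fold change 0.40 with SE 0.092, adjusted p = 0.0048). Rps21 (ENSMUSG00000039001, chr2:180257377-180258445, plus strand), one of the smallest proteins of the subunit, had 239, 401, 361, 330.5 and 363 FPKM in the LSC-labelled libraries, against 206, 383, 178, 187 and 211 FPKM in the HSC-labelled libraries. Replicate 2 was the highest library of both groups, and the groups overlapped through it (log2 fold change 0.58 with SE 0.21, adjusted p = 0.0451). The call of Rps21 was lost in 13 of 23 alternative fits (adjusted p from 0.00145 to 0.23), and without HSC-labelled replicate 2 its log2 fold change was 0.77. Rps12, a protein of the beak of the small subunit, had 123, 143, 109.6, 132 and 141 FPKM in the LSC-labelled libraries, against 83.4, 126, 91.7, 97.5 and 85.4 FPKM in the HSC-labelled libraries. Its HSC-labelled replicate 2 lay within the LSC-labelled range (log2 fold change 0.43 with SE 0.12, adjusted p = 0.0157), and the call was lost in 3 of 23 alternatives (adjusted p 0.00157 to 0.0793).

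Rps10, near the mRNA entry side of the small subunit and a target of ubiquitination when ribosomes stall in human cells, had the largest fold change of all members and one of the lowest levels (ENSMUSG00000052146, chr17:27630418-27636669, minus strand). It had 5.47, 6.31, 7.27, 5.91 and 8.16 FPKM in the LSC-labelled libraries, against 3.92, 5.47, 3.40, 3.82 and 3.57 FPKM in the HSC-labelled libraries. HSC-labelled replicate 2 matched the lowest LSC-labelled library, and the other 4 HSC-labelled libraries lay below (log2 fold change 0.60 with SE 0.13, adjusted p = 0.00385). A near-identical processed pseudogene, Rps10-ps2 on chromosome 16, held 84.2 to 103 FPKM in the LSC-labelled libraries, against 62.3 to 85.4 FPKM in the HSC-labelled libraries. Its log2 fold change was 0.36, adjusted p = 0.0117. Rps10 and its copies are hard to separate, and 81.0% of their summed signal was assigned to copies. Summed, they had a log2 fold change of 0.37, adjusted p = 0.0119.

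The mRNA path of the small subunit had 2 calls among 3 entry and 5 exit proteins. Of all genes, 27.2% were called higher. At the entry, where Rps3 helps to unwind mRNA, Rps3 was called higher and Rps2 and Rps9 were not. Rps3 averaged 500.3 ± 34.1 FPKM in the LSC-labelled libraries and 419 ± 41.7 FPKM in the HSC-labelled libraries (SD, n = 5 each, as for all means below; log2 fold change 0.26 with SE 0.091, adjusted p = 0.0406). The groups of Rps3 overlapped. The call of Rps3 was lost in 11 of the 23 alternatives (adjusted p 0.0137 to 0.352). At the exit, 1 of 5 proteins was called.

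Among large-subunit proteins, 10 of 46 tested were called higher (21.7%, beside 27.2% of all genes), with a median log2 fold change of 0.21. Rpl13a (ENSMUSG00000074129, chr7:45125558-45128761, minus strand), which in human myeloid cells also leaves the ribosome to silence inflammatory mRNAs, had 32.8, 45.4, 40.7, 39.3 and 43.3 FPKM in the LSC-labelled libraries, against 27.7, 26.2, 28.7, 24.0 and 27.4 FPKM in the HSC-labelled libraries. The groups did not overlap, and its adjusted p was the smallest of the family (log2 fold change 0.56 with SE 0.10, adjusted p = 0.000818). Copies held 16.6% of the summed signal of Rpl13a, and with them added its log2 fold change was 0.42, adjusted p = 0.0055. Rpl9 (ENSMUSG00000047215, chr5:65388364-65391444, minus strand), a protein near the base of the stalk, had 237, 277, 246, 262 and 261 FPKM in the LSC-labelled libraries, against 183, 227, 189, 197 and 192 FPKM in the HSC-labelled libraries. The lowest LSC-labelled library stood above the highest HSC-labelled one (log2 fold change 0.38 with SE 0.082, adjusted p = 0.00373). Rpl12, a protein of the stalk base, averaged 106 ± 7.72 FPKM in the LSC-labelled libraries and 80.4 ± 14.1 FPKM in the HSC-labelled libraries (log2 fold change 0.40 with SE 0.11, adjusted p = 0.0138). Rpl28 averaged 277 ± 19.4 FPKM in the LSC-labelled libraries and 212 ± 33.0 FPKM in the HSC-labelled libraries (log2 fold change 0.40 with SE 0.11, adjusted p = 0.0111). The groups of Rpl12 and Rpl28 overlapped, through HSC-labelled replicate 2 in both. Rpl29, Rpl21, Rpl7a, Rpl18 and Rpl14 were called higher without overlap, with log2 fold changes of 0.38, 0.37, 0.36, 0.31 and 0.31. Rpl29 lost its call when near-identical copies were added (0.18, adjusted p = 0.116).

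Rpl38 had the largest fold change of the members that were not called. Rpl38 (ENSMUSG00000057322, chr11:114668524-114672331, plus strand), which in mouse embryos is needed for translation of Hox mRNAs, had 509, 753, 734, 643 and 661 FPKM in the LSC-labelled libraries, against 475, 755, 397, 431 and 475 FPKM in the HSC-labelled libraries. HSC-labelled replicate 2 was the highest of all 10 libraries and the other 4 HSC-labelled libraries lay below every LSC-labelled one (log2 fold change 0.41 with SE 0.17, adjusted p = 0.0821). Without that library the log2 fold change of Rpl38 was 0.56 (adjusted p = 0.00431). Its adjusted p ranged from 0.00431 to 0.352 over the alternatives. Erythroid markers summed to 1767 FPKM in HSC-labelled replicate 2, against 134 to 453 FPKM in the other 4 HSC-labelled libraries, and megakaryocyte markers to 273 FPKM against 19.3 to 81.4 FPKM. Their part in its ribosomal protein values was not tested.

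**Figure D3:**
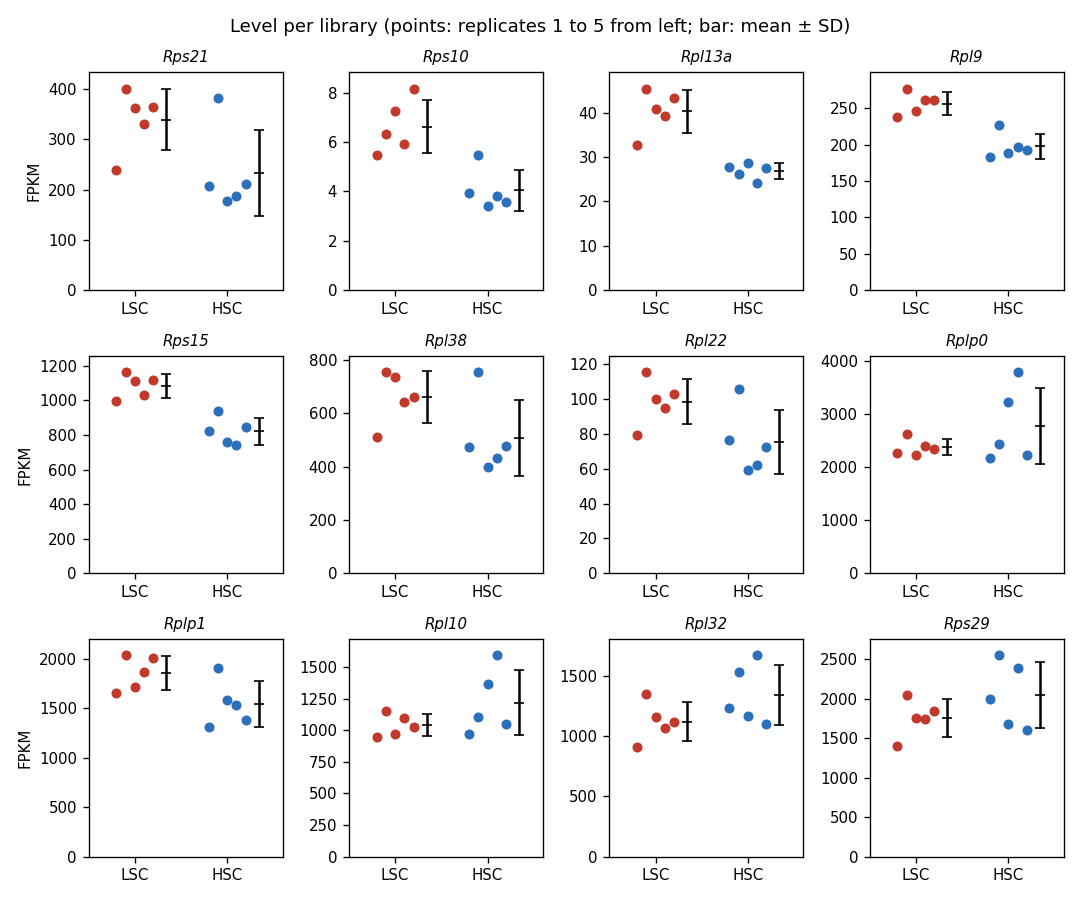
FPKM per library of 12 ribosomal protein genes, LSC-labelled (red) left of HSC-labelled (blue), points in replicate order, with mean and SD. Rpl9, Rps15 and Rpl13a show separate groups, HSC-labelled replicate 2 stands high for Rps21, Rpl38 and Rpl22, and HSC-labelled replicates 3 and 4 stand high for Rplp0 and Rpl10.

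Functional sites of the large subunit have 2 to 7 listed members each, few to set beside the 27.2% of all genes called higher. The P stalk recruits and activates elongation factors, and none of its 3 proteins was called. Rplp0, the scaffold of the stalk and the most abundant member, had 2269, 2617, 2231, 2386 and 2347 FPKM in the LSC-labelled libraries, against 2168, 2436, 3224, 3792 and 2232 FPKM in the HSC-labelled libraries. HSC-labelled replicates 3 and 4 were the highest libraries and the other 3 lay within or just below the LSC-labelled range (log2 fold change -0.19 with SE 0.16, adjusted p = 0.36). Rplp1, which binds Rplp0 with Rplp2, had 1651, 2037, 1709, 1867 and 2006 FPKM in the LSC-labelled libraries, against 1312, 1901, 1579, 1535 and 1378 FPKM in the HSC-labelled libraries. Its groups overlapped (log2 fold change 0.27 with SE 0.12, adjusted p = 0.0873). Rplp1 was called higher in 3 alternatives, among them the one without HSC-labelled replicate 2 (0.35, adjusted p = 0.0188; range over alternatives 0.0188 to 0.415). Rplp2 had 282, 414, 363, 355 and 377 FPKM in the LSC-labelled libraries, against 266, 404, 243, 295 and 258 FPKM in the HSC-labelled libraries. Its groups overlapped as well (log2 fold change 0.30 with SE 0.15, adjusted p = 0.127). The sign of the fold change of Rplp0 turned without HSC-labelled replicates 3 and 4 (0.06, adjusted p = 0.678).

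Rpl5 and Rpl11 bind 5S ribosomal RNA, and when free they inhibit Mdm2 and so stabilise p53. Rpl5 had 541, 562, 525, 521 and 467 FPKM in the LSC-labelled libraries, against 474, 453, 555, 559 and 501 FPKM in the HSC-labelled libraries, with a log2 fold change of 0.04, adjusted p = 0.729 (95% interval -0.15 to 0.24). Rpl11 had 611, 738, 632, 682 and 689 FPKM in the LSC-labelled libraries, against 497, 660.0, 608, 626 and 526 FPKM in the HSC-labelled libraries, with a log2 fold change of 0.21, adjusted p = 0.129 (95% interval -0.02 to 0.43). Both pairs of groups overlapped. Of 4 proteins near the peptidyl transferase centre, Rpl3, Rpl4, Rpl8 and Rpl10, none was called, and the median log2 fold change was -0.01. Of 7 at the peptide exit site, 1 was called higher: Rpl26 averaged 737 ± 70.5 FPKM in the LSC-labelled libraries and 602 ± 70.0 FPKM in the HSC-labelled libraries (log2 fold change 0.29 with SE 0.10, adjusted p = 0.0408). The call of Rpl26 was lost in 13 of the 23 alternatives (adjusted p 0.0109 to 0.261). Rpl39, which lines the exit tunnel, averaged 338 ± 55.0 FPKM in the LSC-labelled libraries and 326 ± 68.6 FPKM in the HSC-labelled libraries (log2 fold change 0.06 with SE 0.15, adjusted p = 0.785).

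Among the 6 members known from leukaemia, Rps15 was called higher (16.7%, beside 27.2% of all genes). Rpl5, Rpl10, Rpl11, Rpl22 and Rps14 were not called. Rpl22 (ENSMUSG00000028936, chr4:152325742-152334071, plus strand), lost in some human T-cell leukaemias, had 79.5, 116, 99.8, 94.9 and 103 FPKM in the LSC-labelled libraries, against 76.2, 106, 59.5, 62.2 and 72.4 FPKM in the HSC-labelled libraries. HSC-labelled replicate 2 lay above 4 of the LSC-labelled libraries and the remaining HSC-labelled libraries lay below all of them (log2 fold change 0.41 with SE 0.15, adjusted p = 0.0557). Rpl22 passed the threshold in 5 alternatives, among them the one without HSC-labelled replicate 2 (0.53, adjusted p = 0.00464; range 0.00464 to 0.285). Rps14, whose loss in human 5q- syndrome impairs red cell formation, averaged 1011 ± 105 FPKM in the LSC-labelled libraries and 879 ± 122 FPKM in the HSC-labelled libraries (log2 fold change 0.21 with SE 0.12, adjusted p = 0.182). Of 19 genes mutated in Diamond-Blackfan anaemia in humans, 4 were called higher (21.1%, beside 27.2% of all genes), among them Rps10 and Rpl26. The median log2 fold change of the 19 was 0.18. Rps19, the gene most often mutated in that disease, averaged 449.9 ± 33.5 FPKM in the LSC-labelled libraries and 477 ± 72.0 FPKM in the HSC-labelled libraries (log2 fold change -0.08 with SE 0.11, adjusted p = 0.605).

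The 6 members of most negative fold change were Rpl32, Rpl10, Rps29, Rplp0, Rps27a and Rps23, and none of them passed the test. Rpl32 (ENSMUSG00000057841, chr6:115805505-115808747, minus strand) had 909, 1349, 1163, 1072 and 1121 FPKM in the LSC-labelled libraries, against 1239, 1539, 1166, 1677 and 1102 FPKM in the HSC-labelled libraries. Its groups overlapped, with HSC-labelled replicates 2 and 4 highest (log2 fold change -0.25 with SE 0.14, adjusted p = 0.188). Rpl10 (ENSMUSG00000008682, chrX:74270812-74273135, plus strand), which joins late in large-subunit assembly and is mutated in human T-cell leukaemia, had 947, 1155, 969, 1099 and 1029 FPKM in the LSC-labelled libraries, against 975, 1106, 1365, 1599 and 1053 FPKM in the HSC-labelled libraries. HSC-labelled replicates 3 and 4 lay above all LSC-labelled libraries, and the other 3 lay within the LSC-labelled range (log2 fold change -0.21 with SE 0.14, adjusted p = 0.252). Rps29, a zinc-binding protein of the small-subunit head, had 1394, 2051, 1756, 1743 and 1841 FPKM in the LSC-labelled libraries, against 1988, 2552, 1679, 2380.3 and 1604 FPKM in the HSC-labelled libraries. Its groups overlapped (log2 fold change -0.20 with SE 0.15, adjusted p = 0.321). Rps27a, made as a fusion with ubiquitin, averaged 788 ± 94.0 FPKM in the LSC-labelled libraries and 854 ± 145 FPKM in the HSC-labelled libraries (log2 fold change -0.11 with SE 0.13, adjusted p = 0.55). Its sign turned without HSC-labelled replicates 3 and 4 (0.03, adjusted p = 0.877). Rps23, a protein of the decoding centre, averaged 728 ± 84.8 FPKM in the LSC-labelled libraries and 789 ± 139 FPKM in the HSC-labelled libraries (log2 fold change -0.11 with SE 0.13, adjusted p = 0.557).

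Set against each other rather than against all genes, some members did differ. Each library was divided by the geometric mean of its 77 tested members, which ran from 373 to 471 FPKM in the LSC-labelled libraries and from 333 to 418 FPKM in the HSC-labelled libraries. On this scale 2 members were higher, beside 13.5% of all genes, and 6 were lower, beside 16.3% of all genes. Rps10 (log2 fold change 0.44 ± 0.13, SE, adjusted p = 0.0219) and Rpl13a (0.38 ± 0.12, SE, adjusted p = 0.0323) were higher. Rpl32 (-0.44 ± 0.10, SE, adjusted p = 0.00663), Rpl10 (-0.40 ± 0.13, SE, adjusted p = 0.0294) and Rps29 (-0.39 ± 0.11, SE, adjusted p = 0.0181) had the largest falls. Rps27a (-0.30 ± 0.10, SE, adjusted p = 0.0456), Rps23 (-0.30 ± 0.10, SE, adjusted p = 0.0348) and Rps26 (-0.26 ± 0.091, SE, adjusted p = 0.0481) fell less. Leaving out 1 library at a time gave 0 to 3 members higher and 2 to 9 lower, with Rpl32 and Rps29 lower each time. Without LSC-labelled replicates 1, 2, 3, 4 and 5 in turn, 3, 2, 2, 3 and 2 members were lower. Without HSC-labelled replicate 3 or 4, 2 were lower, and without HSC-labelled replicate 2, 9 were. With near-identical copies added, 0 were higher and 5 lower.

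The level of the whole family overlapped between the groups. The share of all FPKM held by the 80 members was 9.15% to 11.0% in the LSC-labelled libraries (median 9.74%), against 8.41% to 10.4% in the HSC-labelled libraries (median 9.11%). Weighted by exon length, as a share of all signal, they held 5.50% to 6.72% in the LSC-labelled libraries and 4.97% to 6.50% in the HSC-labelled libraries. These shares, and the shares of copies, use GENCODE M21 exon lengths, since the lengths behind the FPKM values and the treatment of reads with several matches are not stated by the sources. LSC-labelled replicate 2 was the highest library of its group for 71 of the 77 tested members, and LSC-labelled replicate 1 the lowest for 61. HSC-labelled replicate 2 was highest in its group for 42 members and HSC-labelled replicate 4 for 28, and HSC-labelled replicate 1 was lowest for 35. The median coefficient of variation of a member was 9.19% over the LSC-labelled libraries and 14.9% over the HSC-labelled libraries, and it was larger in the HSC-labelled libraries for 72 of 77 members. The ratio of summed small-subunit to summed large-subunit FPKM was 0.721 to 0.742 in the LSC-labelled libraries. It was 0.733 to 0.746 in HSC-labelled replicates 1, 2 and 5, but 0.672 in replicate 3 and 0.697 in replicate 4.

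**Figure D4:**
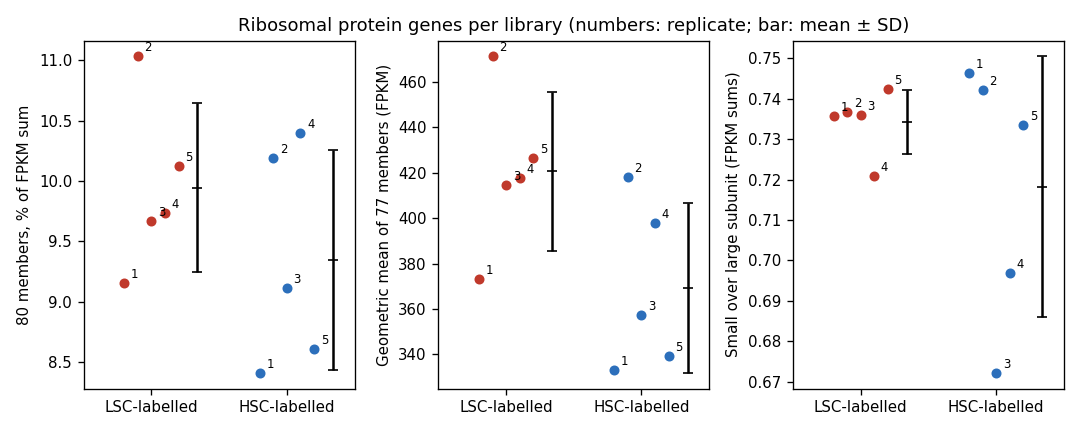
Share of the FPKM sum held by the 80 members, geometric mean FPKM of the 77 tested members and ratio of small-subunit to large-subunit FPKM sums, per library, LSC-labelled left of HSC-labelled, with mean and SD. The groups overlap in each panel, and HSC-labelled replicates 3 and 4 have the lowest subunit ratios at 0.672 and 0.697.

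The family was highly expressed in all libraries. Of the 100 genes of highest mean FPKM, 35 were members, 64 members exceeded 100 FPKM in every library, and 11 averaged over 1000 FPKM. After Rplp0, the highest were Rps29 and Rpl41, a very short protein that lies between the subunits. Rpl41 averaged 1828 ± 126 FPKM in the LSC-labelled libraries and 1720.2 ± 315 FPKM in the HSC-labelled libraries (log2 fold change 0.10 with SE 0.13, adjusted p = 0.552). The lowest tested were Rpl24, Rps10 and Rpl13a. Rpl24 had 1.98, 2.29, 1.95, 1.87 and 1.56 FPKM in the LSC-labelled libraries, against 1.52, 1.44, 1.39, 1.67 and 1.56 FPKM in the HSC-labelled libraries. Its groups overlapped (log2 fold change 0.22 with SE 0.093, adjusted p = 0.085), and 76.3% of the signal summed over Rpl24 and its near-identical copies was assigned to copies. The highest copy averaged only 7.02 FPKM for Rpl24 and 22.2 FPKM for Rpl13a. Why these members were so low beside most others was not tested. Levels of different members also depend on the gene length that FPKM divides by. The principal mRNA covered 10.2% to 100% of a member's annotated exon length (median 42.6%), and members with more exon length beyond the mRNA had lower FPKM (Spearman rho = -0.38 across 77 genes, a description). Members of lower level had larger fold changes (rho = -0.48 across the same genes), while coding length showed almost no relation to the fold change (rho = -0.01). Genes of 1 library share depth and scaling and are not independent points.

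Near-identical copies are a known difficulty of this family, since mammalian genomes carry many processed ribosomal protein pseudogenes. With a threshold of 95% identity over 80% of the coding sequence, 74 members had copies in 555 other genes, 533 of them processed pseudogenes. Of 295 copies tested, 19 were higher (6.44%, beside 27.2% of all genes) and 12 lower (beside 13.8% of all genes). Copies held a median of 3.11% of a member's summed signal, and over 10% for 16 members. The copies include protein-coding genes with a matching transcript, such as Ciapin1 (30.7 FPKM) for Rpl7a and Med21 (63.3 FPKM) for Rps26. Their whole signal was counted, so the shares of Rpl7a (31.7%) and Rps26 (14.6%) overstate copies. Med21 is among the 12 copies called lower, and values with copies added carry the same limit. Besides Rps10 and Rpl24 the shares were 51.7% for Rpl23a and 44.3% for Rpl21. With copies added to each member, 17 members were called higher, all of them among the 19. Among the copies, Gm8292, a copy of Rps24, was at 4.89 against 0.725 FPKM (log2 fold change 1.79, adjusted p = 1.44e-05). Gm10059, a copy of Rps29, was at 18.3 against 31.8 FPKM (log2 fold change -0.72, adjusted p = 0.0164).

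Of 8 ratios of a paralogue to its parent gene, 4 differed between the groups. The log2 ratio of the pair was compared by a two-sided exact permutation test over the 10 libraries, which can reach no p below 0.00794, with adjustment over the 8. Rpl22l1, which can replace Rpl22 and which Rpl22 represses in mouse cells, stood at 42.2% to 48.5% of Rpl22 in the LSC-labelled libraries, against 50.6% to 65.8% in the HSC-labelled libraries. The groups did not overlap, and the mean log2 ratio was 0.27 lower in the LSC-labelled libraries (exact p = 0.00794, adjusted 0.0212). Rpl22l1 itself had 33.7, 56.1, 47.4, 45.5 and 43.4 FPKM in the LSC-labelled libraries, against 38.6, 53.8, 32.0, 40.9 and 40.3 FPKM in the HSC-labelled libraries and was not called (log2 fold change 0.14, adjusted p = 0.506). Rpl36al stood at 1.23% to 1.37% of Rpl36a in the LSC-labelled libraries, against 1.35% to 2.13% in the HSC-labelled libraries, where replicate 4 alone reached into the LSC-labelled range. On the log2 scale, with 1 added to both values, the groups were barely apart and the ratio fell by 0.47 (exact p = 0.00794, adjusted 0.0212). With a pseudocount of 0.1 the log2 difference was -0.49 (exact permutation test, adjusted p = 0.0381). The bare separation thus depended on the pseudocount. Rpl36al averaged 6.06 ± 0.651 FPKM in the LSC-labelled libraries and 7.05 ± 1.93 FPKM in the HSC-labelled libraries, and Rpl36a 465 ± 60.2 FPKM in the LSC-labelled libraries and 381 ± 88.3 FPKM in the HSC-labelled libraries, neither called.

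Rps4l, annotated as a transcribed processed pseudogene and not a member, was much higher in the LSC-labelled libraries. It had 16.7, 15.6, 13.6, 17.9 and 15.8 FPKM in the LSC-labelled libraries, against 0.273, 8.67, 1.44, 1.38 and 0.765 FPKM in the HSC-labelled libraries. The groups did not overlap, and HSC-labelled replicate 2 stood above the other 4 HSC-labelled libraries (log2 fold change 2.68 with SE 0.43, adjusted p = 0.000555). Its log2 ratio to Rps4x differed by 2.45 (exact p = 0.00794, adjusted 0.0212), while Rps4x averaged 944 ± 98.6 FPKM in the LSC-labelled libraries and 804 ± 107 FPKM in the HSC-labelled libraries (log2 fold change 0.23, adjusted p = 0.122). Rps27l, a target of p53 that resembles Rps27, stood at 42.8% to 50.7% of Rps27 in the LSC-labelled libraries, against 28.5% to 46.0% in the HSC-labelled libraries, with overlap (log2 difference 0.31, exact p = 0.0238, adjusted 0.0476). This call was lost on leaving out any single library except HSC-labelled replicate 5 (adjusted p 0.0635 to 0.0952). The exact permutation test is coarser with a library left out, and the adjusted p for Rps4l over Rps4x also rose, to 0.0317 to 0.0423. The log2 difference of Rps27l to Rps27 ran from 0.21 to 0.39 without single libraries. The lost calls thus cannot be told apart from the coarser test. Rps27l averaged 498 ± 65.5 FPKM in the LSC-labelled libraries and 395 ± 61.5 FPKM in the HSC-labelled libraries and Rps27 1062 ± 123 FPKM in the LSC-labelled libraries and 1050.4 ± 181 FPKM in the HSC-labelled libraries, neither called, and Rps27rt, a near-identical copy of Rps27, averaged 82.4 ± 5.70 FPKM in the LSC-labelled libraries and 83.4 ± 16.0 FPKM in the HSC-labelled libraries.

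**Figure D5:**
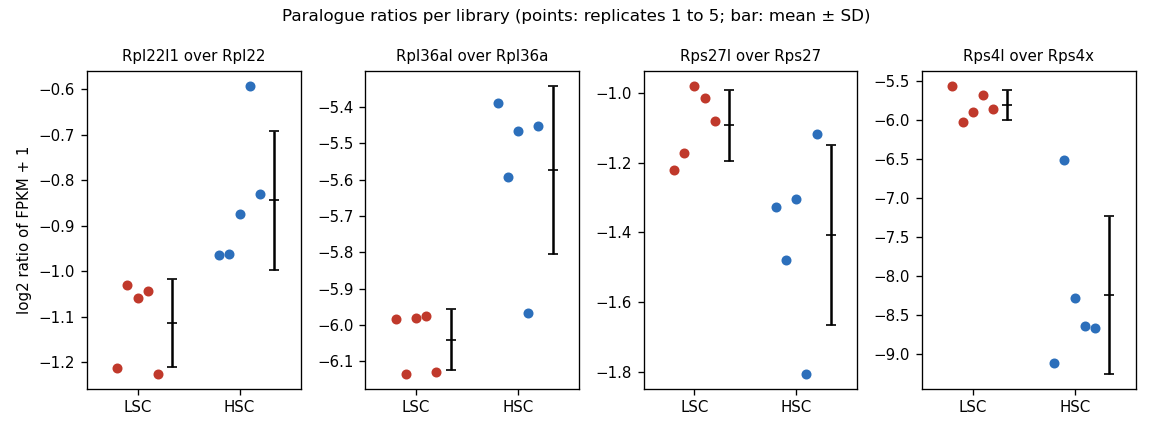
Log2 ratio of paralogue to parent (FPKM + 1 in both) per library for 4 pairs, LSC-labelled left of HSC-labelled, with mean and SD. The groups are apart for Rpl22l1 and Rps4l and barely apart for Rpl36al, with HSC-labelled replicate 2 the highest HSC-labelled library for Rps4l, and they overlap for Rps27l.

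The remaining pairs passed no threshold. Rpl3l, known from heart and skeletal muscle, had 0.195, 0.342, 0.866, 0.544 and 0.400 FPKM in the LSC-labelled libraries, against 0.780, 3.35, 1.15, 0.944 and 0.769 FPKM in the HSC-labelled libraries, with a log2 ratio to Rpl3 that differed by -0.65 (exact p = 0.0317, adjusted 0.0508). Rpl3 averaged 889 ± 48.4 FPKM in the LSC-labelled libraries and 887 ± 168 FPKM in the HSC-labelled libraries (log2 fold change 0.02, adjusted p = 0.904). Rpl10l, known from testis, stayed at 0.179 FPKM or below in every library, and Rpl39l, also known from testis, at 0.599 FPKM or below. Both lie below the pseudocount of 1, so their ratios largely carry the change of the parent gene and are not read here. Rpl7l1 averaged 88.9 ± 6.77 FPKM in the LSC-labelled libraries and 75.9 ± 8.78 FPKM in the HSC-labelled libraries, and its ratio to Rpl7 differed by -0.02 (adjusted p = 0.873).

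Of 4 ribosomal components that the naming rule does not take in, 1 was called higher, beside 27.2% of all genes. Rack1, a scaffold on the small-subunit head that receives kinase signals, had 202, 237, 212, 222 and 228 FPKM in the LSC-labelled libraries, against 147, 181, 189.8, 167 and 169.8 FPKM in the HSC-labelled libraries. Its groups did not overlap (log2 fold change 0.37 with SE 0.087, adjusted p = 0.00582). It lost its call with median-of-ratios scaling (adjusted p 0.00177 to 0.0849 over the alternatives). Fau, made as a fusion of a ubiquitin-like protein with Rps30, averaged 891 ± 64.3 FPKM in the LSC-labelled libraries and 1073 ± 131 FPKM in the HSC-labelled libraries (log2 fold change -0.26 with SE 0.10, adjusted p = 0.0644). Fau was called lower in 4 alternatives, 3 of them other scalings (adjusted p 0.0252 to 0.23). Rps3a1, of the small subunit, averaged 1007 ± 142 FPKM in the LSC-labelled libraries and 1045 ± 162 FPKM in the HSC-labelled libraries (log2 fold change -0.05 with SE 0.13, adjusted p = 0.79).

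Other genes of translation differed from list to list in how many were called. Of 77 mitochondrial ribosomal proteins tested, which serve the separate ribosome of mitochondria, 48 were higher and 1 lower, with a median log2 fold change of 0.42. Genes of RNA polymerase I and of 5S transcription, which make ribosomal RNA, had 8 of 12 higher. Polr1b, the second largest subunit of RNA polymerase I, was at 32.5 against 18.5 FPKM (log2 fold change 0.78, adjusted p = 3.77e-05). Chaperones of ribosomal proteins had 7 of 9 higher, and Tsr2, which carries Rps26, was at 14.95 against 8.79 FPKM (log2 fold change 0.72, adjusted p = 0.000484). Rps26 itself was not called (log2 fold change -0.07, adjusted p = 0.666). Initiation factors had 18 of 40 higher and 2 lower. Eif2b1, a subunit of the exchange factor for eIF2, rose (60.3 against 37.5 FPKM, log2 fold change 0.69, adjusted p = 0.00236), and Eif3f, a subunit of the eIF3 scaffold, fell (148 against 247 FPKM, log2 fold change -0.70, adjusted p = 0.0138).

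Elongation and release factors had 5 of 11 higher. Eef1g, a subunit of the exchange complex of eEF1A, was at 490.0 against 284 FPKM (log2 fold change 0.79, adjusted p = 0.000166). Other genes whose mRNAs carry a TOP tract, a list that shares some genes with the factors above, had 7 of 19 higher and 2 lower, and Vim, vimentin, fell (57.7 against 116 FPKM, log2 fold change -0.99, adjusted p = 2.50e-05). Genes of the mTOR pathway that controls TOP mRNAs had 3 of 13 higher and 0 lower. Eif4ebp1, an inhibitor of cap-dependent initiation, was at 70.4 against 51.0 FPKM (log2 fold change 0.47, adjusted p = 0.0109). Factors that meet the new chain had 3 of 13 higher, with Naa10, an N-terminal acetyltransferase, at 33.2 against 24.4 FPKM (log2 fold change 0.44, adjusted p = 0.00174). Ribosome quality control genes had 1 of 7 higher, Hbs1l, which helps to release stalled ribosomes, at 26.0 against 20.5 FPKM (log2 fold change 0.33, adjusted p = 0.00792). Each pair of FPKM values sets the mean of the LSC-labelled against that of the HSC-labelled libraries, and the same background of 27.2% higher and 13.8% lower applies. The difference in counts between these lists and the ribosomal proteins was not tested.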

How the data were processed

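The authors deposited 1 table of FPKM values (sequenced fragments divided by gene length and library size) for 51456 Ensembl gene IDs in 10 libraries; per the labels' protocols, a miRNeasy kit gave the RNA, Geo-seq the amplified cDNA and a TruePrep kit the libraries. Per the submitters' processing notes reads were placed on mm10, with Cufflinks 2.1.1, Bowtie 0.12.9, DESeq2 and HTSeq among the programs used, in roles not given there. Strandedness is not given in the sources used here, so reads of copies, overlapping genes and antisense genes may be shared. Of the IDs, 51246 matched GENCODE M21 (GRCm38), which gave symbols and coordinates.

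FPKM values are not counts, so log2(FPKM + 1) was fitted with limma 3.58.1 (R 4.3.3) on group with a mean trend, for 13431 genes at or above 1 FPKM in at least 5 libraries. Tests were two-sided with Benjamini-Hochberg adjustment over all genes and a threshold of 0.05. A fold change is the LSC-labelled minus the HSC-labelled mean on this scale, which understates changes of low genes. Copies were found with BLAST 2.17.0, and figures and tables made with Python 3.11.15. Low FPKM values moved in steps, 84.6% to 91.6% of them within 0.05 of a whole multiple, which puts the depth at about 33500000 to 70300000 reads or fragment units in the LSC-labelled and 26500000 to 55200000 in the HSC-labelled libraries.

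The members, lists and tests were chosen with earlier results of these data known. Genes were named by rule: all members of the stalk, 5S and leukaemia lists, paralogues and components outside the naming rule, the 6 largest fold changes each way, the 3 highest and 3 lowest levels, members not tested, and the most changed called gene each way above 10 FPKM of every other list; Rps19, Rps26, Rpl9, Rpl12, Rpl28, Rpl39, the other called members and the copies were added after their values were seen. A few genes named by rule are not reported here. Alternatives covered pseudocounts, filters, scalings, GC and length trends, weights, replicate block and leaving out libraries. Adding copies, leaving out HSC-labelled replicates 3 and 4 together, and the repeats on values divided by the members' geometric mean were chosen after seeing the data.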

Additional observations from a re-analysis of the deposited data

Results flagged for a closer look

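Of 84 groups of 5 values checked for a library standing far from the rest, 5 did, and chance gives about 5% of groups. All 5 were HSC-labelled replicate 2, high for Rps21 (383 FPKM), Rpl38 (755 FPKM), Rps10 (5.47 FPKM), Rpl3l (3.35 FPKM) and the processed pseudogene Rps4l (8.67 FPKM). In the same library erythroid markers summed to 1767 FPKM, megakaryocyte markers to 273 FPKM and neutrophil markers to 811 FPKM, each the highest of the HSC-labelled libraries. Their part in these values was not tested.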

How the results depend on the processing

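Over 23 alternative fits, values of the named genes kept their side of the threshold in 1189 cases. A call was lost in 51 cases and gained in 20, with no called direction reversed. The 1189 include genes not called whose sign turned, such as Rplp0 (log2 fold change -0.31 to 0.06) and Rpl3 (-0.10 to 0.20). All genes called numbered 5513, from 2869 (at least 10 FPKM in 5 libraries, which tests fewer genes) to 5950. The median log2 fold change of ribosomal protein genes ran from 0.08 to 0.25, and none was lower. Those higher numbered 19, but 7 with median-of-ratios scaling, 35 with array weights, and 13 to 32 on leaving out single libraries (32 without HSC-labelled replicate 2). Relative to each other, 2 were higher and 6 lower. Single libraries left out gave 0 to 3 and 2 to 9, the replicate block gave 3 lower, and copies added gave 0 higher; the cause was not tested.

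The ratio of Rps27l to Rps27 ranged from 0.21 to 0.39 without single libraries. The ratio of Rpl3l to Rpl3 passed the threshold with pseudocount 0.1 (-1.30, adjusted p = 0.0381; exact permutation test) and without LSC-labelled replicate 3 (-0.76, adjusted p = 0.0317; exact permutation test), with a range of -0.79 to -0.39 without single libraries. Same-numbered libraries deviated together only weakly over all genes tested (r = 0.107, 0.12, -0.29, 0.225 and 0.0519). Not every library correlated best with its own number. For the members, replicate 1 was most often the lowest and replicate 2 most often the highest library in both groups. Whether same-numbered libraries share a batch cannot be settled from these values. With the replicate as a block 21 members were higher, 18 of them among the 19, and 5155 genes were called.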
